A study of Arabidopsis thaliana with 18 samples.

Results

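Of the 32548 nuclear genes counted, 9 reached a clear transcript level only in explants cultured with the synthetic auxin 2,4-D (2,4-dichlorophenoxyacetic acid). The genes were chosen on CPM, the count of a gene divided by the total count of its library and multiplied by 1000000. A gene was taken where its mean CPM was 4 or more at both culture times on the 2,4-D medium and 0.5 or less in each of the 4 other groups. *AT5G43240*, *AT3G09110* and *AT3G09120* encode proteins with a domain of unknown function named DUF674. *WIP5* (*AT1G51220*), *AT3G52440* and *AT4G01260* encode DNA-binding proteins. *AT3G55550* is a lectin receptor kinase gene, *AT5G59100* a subtilisin-like protease gene and *AT1G05153* a long non-coding RNA gene. The levels on the 2,4-D medium and on the other media chose the genes, so these levels are given as a description and were not tested.

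The libraries were made from immature zygotic embryos (IZEs) of Arabidopsis, genotype Columbia-0, taken at the cotyledonary stage and cultured as explants. The E0 medium held no inducer, the ET medium held 1 µM trichostatin A (TSA), an inhibitor of histone deacetylases, and the EA medium held 5 µM 2,4-D. Explants on E0 grow into seedlings, whereas those on ET and EA form somatic embryos. RNA was taken on day 5 or day 10 from pools of whole explants, and 3 biological replicates named a, b and c were sequenced for each of the 6 groups. A pool holds all the tissues of an explant, so more cells of a type and more RNA per cell cannot be told apart in these values. The totals of the 18 libraries ranged from 9098758 to 58364735 counts, and 3 counts, taken as the floor of detection, corresponded to 0.0514 to 0.330 CPM.

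Auxin, or 2,4-D in its place, binds TIR1/AFB receptors and leads to the loss of Aux/IAA repressors, which frees ARF transcription factors to act on genes with auxin response elements in their promoters. In explant culture 2,4-D is a standard inducer of callus and of somatic embryos, and callus induced by auxin is known to share many transcripts with root tips and lateral root primordia. *WIP5* belongs to a family of zinc finger transcription factors of which *NTT*, *WIP4* and *WIP5* act together when the embryonic root is founded. Dof proteins are plant transcription factors whose zinc finger binds AAAG, and storekeeper-related proteins are named after a potato factor that binds promoters of tuber storage protein genes. Lectin receptor kinases sit in the plasma membrane with a lectin-like domain outside the cell, and subtilases are serine proteases that are mostly secreted.

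The DUF674 genes formed the largest related group, and 2 of them were neighbours. *AT3G09110* lies at chr3:2794165-2795991 and *AT3G09120* at chr3:2796958-2798764 on the minus strand of the TAIR10.1 genome, with 966 bases and no annotated gene between them. Both have 3 exons, and their coding sequences were identical at 70.4% of 904 aligned bases. *AT3G09110* matched *AT5G01150* at 71.8% of 1007 bases, and *AT3G09120* matched *AT5G43240* at 72.7% of 924 bases. By this measure neither neighbour was the closest relative of the other. The 250 bases before the annotated start of each are shown, because a stretch of them was alike in both genes. Capitals mark TGTCCC, a variant of the auxin response element, here read on the other strand as GGGACA.

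AT3G09110, chr3:2795992-2796241, minus strand: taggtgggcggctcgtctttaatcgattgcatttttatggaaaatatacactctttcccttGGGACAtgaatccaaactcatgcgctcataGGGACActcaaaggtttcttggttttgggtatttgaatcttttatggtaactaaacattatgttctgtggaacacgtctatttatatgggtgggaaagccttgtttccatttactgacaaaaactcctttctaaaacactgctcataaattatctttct
AT3G09120, chr3:2798765-2799014, minus strand: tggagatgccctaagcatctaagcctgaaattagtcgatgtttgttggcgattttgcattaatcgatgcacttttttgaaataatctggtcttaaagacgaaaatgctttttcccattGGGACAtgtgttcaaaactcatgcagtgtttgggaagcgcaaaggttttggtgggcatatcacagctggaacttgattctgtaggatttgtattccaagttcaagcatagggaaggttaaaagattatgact

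In a local alignment of these promoters, 50 of 62 aligned bases were identical (80.6%), with 4 gap positions. The aligned stretch ran from base -200 to base -137 before the start of *AT3G09110* and from base -144 to base -81 before the start of *AT3G09120*. It is repeated below with the identical bases in capitals, and it holds GGGACA in both genes.

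AT3G09110, chr3:2796128-2796191, minus strand: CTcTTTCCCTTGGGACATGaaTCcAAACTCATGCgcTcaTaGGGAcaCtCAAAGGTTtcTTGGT
AT3G09120, chr3:2798845-2798908, minus strand: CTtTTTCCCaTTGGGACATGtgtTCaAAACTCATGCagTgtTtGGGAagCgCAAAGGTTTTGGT

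*AT5G43240* lies at chr5:17352976-17355138 on the minus strand and has 4 exons. Its closest relative among the DUF674 genes was *AT5G01120*, whose coding sequence was identical at 1247 of 1509 aligned bases (82.6%). The 250 bases before the start of each are shown because these close relatives differed in their levels on the TSA medium, as given further on. Neither window holds the variant in capitals above.

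AT5G43240, chr5:17355139-17355388, minus strand: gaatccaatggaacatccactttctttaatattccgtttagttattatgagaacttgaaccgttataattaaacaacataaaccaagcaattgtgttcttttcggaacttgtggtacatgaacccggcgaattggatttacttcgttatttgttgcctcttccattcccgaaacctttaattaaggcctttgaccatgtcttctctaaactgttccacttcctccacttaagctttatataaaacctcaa
AT5G01120, chr5:44560-44809, plus strand: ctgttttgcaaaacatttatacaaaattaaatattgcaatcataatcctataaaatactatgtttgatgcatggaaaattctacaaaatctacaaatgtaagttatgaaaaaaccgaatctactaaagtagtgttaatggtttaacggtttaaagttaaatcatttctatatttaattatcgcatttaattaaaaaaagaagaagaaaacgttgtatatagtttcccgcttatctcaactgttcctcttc

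The best local alignment of this pair covered 22 bases next to the start of *AT5G01120*, of which 19 were identical (86.4%).

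The auxin response element TGTCTC was in none of the 9 promoters, searched on both strands, and in 10.95% of the 27443 promoters of protein-coding genes of the same length. TGTCGG, another variant bound by ARF proteins, was also in none of the 9 and in 4.16% of all. TGTCCC was in 2 of the 9, *AT3G09110* and *AT3G09120*, and in 3.91% of all. Other stretches that start with TGTC, such as TGTCTT in the window of *AT5G43240*, were not counted. TATAAA was in 5 of 9 against 47.35%, and TGACG, the core bound by TGA factors that act in responses to foreign chemicals, in 2 of 9 against 18.58%. These matches are letters in a short window and do not show binding. Mirrored for TSA, the rule took 5 genes, of which none held TGTCTC or TGTCGG, 1 held TGTCCC and 3 held TGACG.

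Per kilobase of exon, *AT5G43240* reached the highest level of the 9 genes on day 10 (22.0 CPM), and the short *AT1G05153* on day 5 (19.3 CPM). On EA *AT5G43240* was counted at 13.5, 20.6 and 17.8 CPM in replicates a, b and c on day 5, and at 43.1, 38.9 and 42.4 CPM on day 10. On E0 it was at 0.265, 0.0936 and 0 CPM on day 5 and at 0.107, 0.0642 and 0.0171 CPM on day 10. On ET it was at 0.240, 0.207 and 0.133 CPM on day 5 and at 0.173, 0.208 and 0.178 CPM on day 10. All 6 EA libraries lay above all 12 others, and the day 10 libraries on EA lay above the day 5 libraries without overlap. The share of all genes without overlap between the days was not counted. The mean on EA was 89.5 times that on ET on day 5 and 223 times on day 10. Both ratios are rough, as the 3 ET libraries together held 18 counts on day 5 and 17 on day 10. No ratio to E0 is given, because 5 of the 6 E0 libraries held 4 counts or fewer of this gene.

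*AT3G09110* was at 8.00, 9.92 and 15.8 CPM on EA on day 5 and at 8.75, 16.7 and 14.1 CPM on day 10. Its neighbour *AT3G09120* was at 5.06, 5.40 and 6.28 CPM on day 5 and at 6.81, 7.43 and 10.1 CPM on day 10. Replicate a was the lowest EA library for both genes on both days. In the 12 E0 and ET libraries *AT3G09110* did not exceed 0.657 CPM and *AT3G09120* 0.497 CPM, and ET replicate c on day 10 was the highest for both. Per kilobase of exon, *AT3G09110* stood at 6.74 and 7.91 CPM on EA on days 5 and 10, *AT3G09120* at 3.43 and 4.99 CPM, and *AT5G43240* at 9.16 CPM on day 5.

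The gene that follows the pair, *AT3G09130*, encodes an uncharacterized protein on the other strand, and 547 bases lie between the starts of both genes. Like the other neighbours and relatives given below, it was picked after its values were seen. It showed the same order of the media, with 1.41 ± 0.362 CPM (SD, n = 3) on EA on day 5, 2.36 ± 0.923 CPM on day 10, and at most 0.107 CPM in any E0 or ET library. The next gene, *AT3G09140*, is a further DUF674 gene and was at or below 0.0140 CPM in the mean of every group. *AT3G09100* on the other side, an mRNA capping enzyme gene, was at 67.2 to 93.8 CPM in the means of the E0 and ET groups.

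*WIP5*, at chr1:18989751-18992149 on the minus strand, encodes one of the WIP zinc finger factors. It was at 4.00, 4.05 and 5.73 CPM on EA on day 5 and at 6.41, 11.2 and 2.95 CPM on day 10, so that replicates on day 10 differed by more than the day means. On E0 it ranged from 0.110 to 0.375 CPM and on ET from 0.155 to 0.769 CPM. The groups did not overlap, but the lowest EA library was only 3.83 times the highest other library, the smallest such ratio of the 9 genes. *WIP5* lies close to *PLT2*, a root stem cell factor gene, with 2 annotated genes between them.

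The Dof gene *AT3G52440*, at chr3:19435122-19436299 on the plus strand, was at 8.17, 8.60 and 9.89 CPM on EA on day 5 and at 5.67, 9.02 and 10.9 CPM on day 10. Its highest other level was on E0 on day 5, at 0.419, 0.375 and 0.659 CPM, and it was between 0 and 0.0799 CPM there on day 10. The storekeeper-related gene *AT4G01260*, at chr4:528570-529547 on the minus strand, was at 4.92, 10.6 and 11.8 CPM on EA on day 5 and at 4.85, 7.68 and 4.21 CPM on day 10. It did not exceed 0.417 CPM in any E0 or ET library, and 7 of these 12 libraries held 3 counts or fewer of it.

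The lectin receptor kinase gene *AT3G55550*, at chr3:20599978-20602129 on the minus strand, was at 11.8, 14.6 and 14.5 CPM on EA on day 5 and at 21.5, 22.9 and 24.2 CPM on day 10. The EA libraries of both days did not overlap, but the difference did not pass the test in the fit of all 18 libraries, given further on. On ET on day 10 it was at 0.518, 0.0834 and 0.870 CPM, the last in replicate c, and in all other E0 and ET libraries at 0.0799 to 0.321 CPM.

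The protease gene *AT5G59100*, at chr5:23858873-23862129 on the minus strand, was at 9.47, 5.52 and 8.67 CPM on EA on day 5 and at 6.97, 11.7 and 9.74 CPM on day 10. It had no count in any of the 3 ET libraries on day 5, so that its level on EA was at least 52.7-fold higher, taking 3 counts in each ET library as the floor. The most it reached elsewhere was 0.274 CPM, in replicate c of E0 on day 10. Other subtilase genes lie on both sides of it. *SBT4.12*, which lies 3373 bases past its 3′ end, had the opposite order of media, with 65.5 ± 3.29 CPM on E0 on day 5, 135 ± 43.2 CPM on E0 on day 10, and 0.221 ± 0.108 and 0.175 ± 0.190 CPM on EA (SD, n = 3). On the other side, 1400 bases from *AT5G59100*, *AT5G59110* was low but highest on EA. It was at 0.512 ± 0.288 and 0.254 ± 0.183 CPM on EA on days 5 and 10 (SD, n = 3). It was at 0 CPM in every ET library and at most at 0.110 CPM in any E0 library.

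The non-coding gene *AT1G05153*, at chr1:5191674-5192677 on the plus strand, has 2 exons with 286 bases in all. It was at 5.91, 7.92 and 2.72 CPM on EA on day 5 and at 4.69, 5.41 and 2.44 CPM on day 10, and at most at 0.291 CPM elsewhere. Its span overlaps that of *AT1G15085*, an uncharacterized protein gene on the same strand, by 459 bases, although no exon of one overlaps an exon of the other. *AT1G15085* was also most abundant on EA, with 136, 120 and 88.1 CPM on day 5 and 193, 162 and 64.4 CPM on day 10. It was at 1.87 to 6.74 CPM on E0 and at 1.83 to 13.5 CPM on ET. Replicate c was the lowest EA library for both genes on both days. The second exon of *AT1G05153* lies in an intron of *AT1G15085*, and the part of unspliced *AT1G15085* RNA in its counts was not tested.

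No exon of the 9 genes overlapped an exon of another gene on either strand, and no stretch of 76 exon bases, the read length, occurred elsewhere in the genome. All 9 genes had every EA library above every E0 and ET library, which held for 6.58% of the 23539 genes tested, and as the rule used this contrast nothing is read from it. The summed level of the 9 genes was 70.8 to 93.1 CPM on EA on day 5 and 109 to 131 CPM on day 10. It was 1.03 to 1.65 CPM on E0 and 1.13 to 3.38 CPM on ET. The highest of these 12 libraries was ET replicate c on day 10, with 190 counts over the 9 genes and more than 3 counts of each. It was one of the most deeply sequenced libraries, with 56300290 counts, and the part of depth in these counts was not tested.

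**Figure D1:**
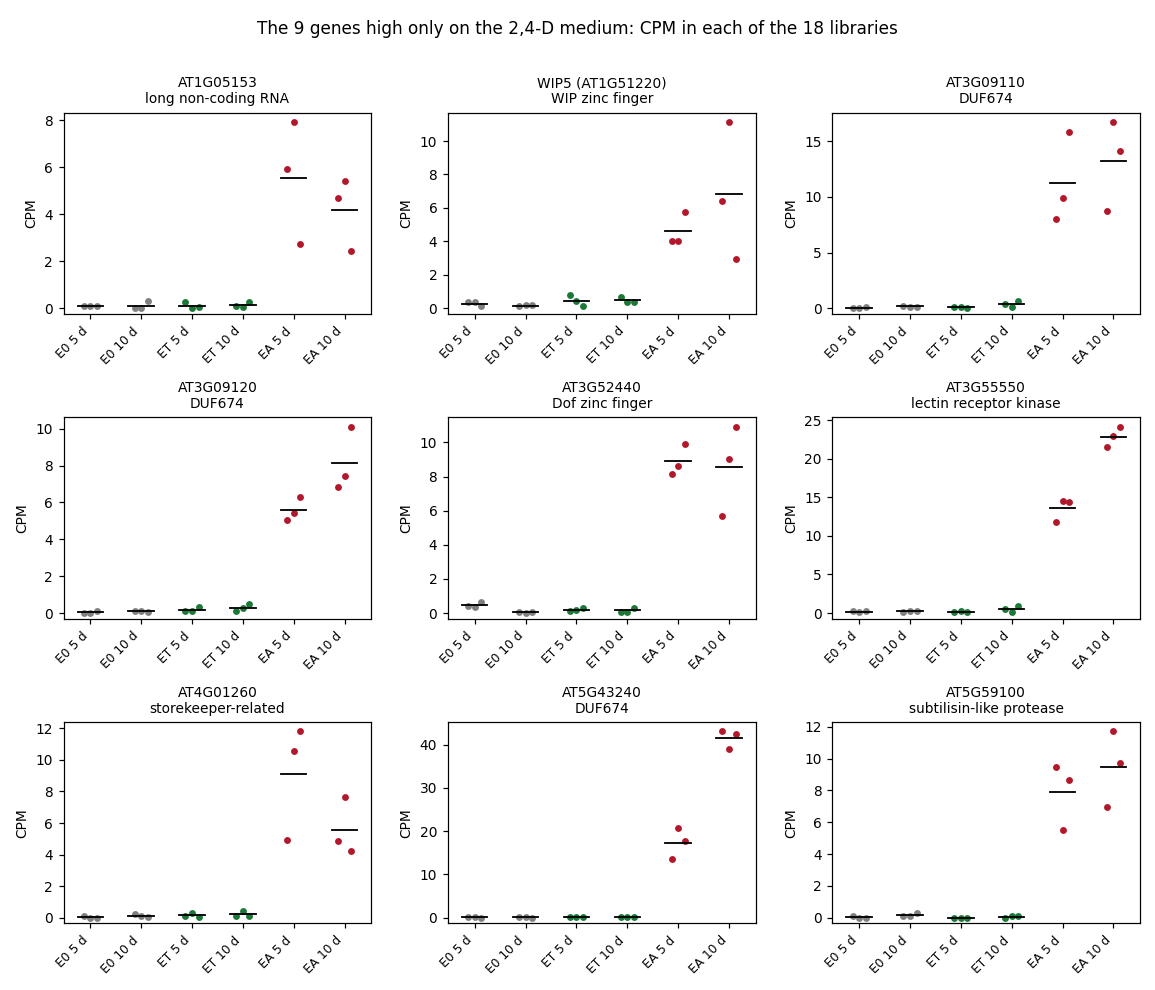
CPM (y axis, linear) of the 9 genes in each of the 18 libraries, by medium and day (x axis); points are libraries and black lines are group means of 3 libraries. The E0 and ET libraries lay at 0.870 CPM or less and the EA libraries at 2.44 CPM or more for each gene. *AT5G43240* and *AT3G55550* showed no overlap between the EA libraries of both days, but only *AT5G43240* passed the test in the fit of all 18 libraries.

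The rule has sharp limits, and several genes lay close to them. The highest E0 or ET mean was 0.491 CPM for *AT3G55550*, 0.484 CPM for *AT3G52440* and 0.480 CPM for *WIP5*, just inside the limit of 0.5 CPM. The genes just outside were *AT1G34047* with 0.511 CPM, *YUC7*, an auxin synthesis gene, with 0.681 CPM, and *AT1G05577* with 0.703 CPM. *YUC7* was at 6.94 and 19.2 CPM in the EA means of days 5 and 10. The smallest EA means inside the limit of 4 CPM were 4.18 CPM for *AT1G05153*, 4.59 CPM for *WIP5* and 5.58 CPM for *AT4G01260*, and just outside were *AT4G18335* with 3.61 CPM, *AT5G18510* with 2.83 CPM and *LBD19*, a lateral organ boundaries gene, with 2.56 CPM. With library sizes scaled by the TMM method (trimmed mean of M-values), 5 of the 9 genes still met the limits, and *AT1G05153*, *WIP5*, *AT3G52440* and *AT3G55550* did not.

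**Figure D2:**
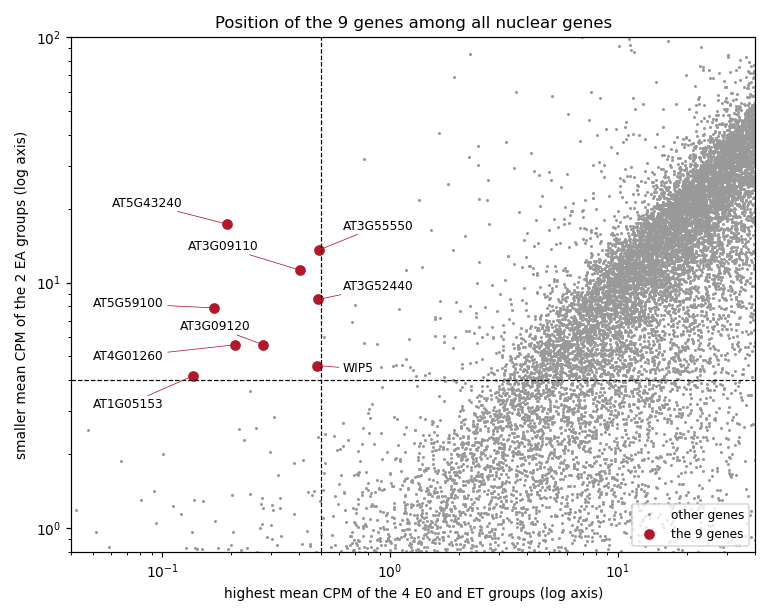
Smaller of both EA group means (y axis, CPM, log scale) against the highest mean of the 4 E0 and ET groups (x axis, CPM, log scale) for nuclear genes near the limits; each point is a gene, red points are the 9 genes and dashed lines are the limits of 4 and 0.5 CPM. *AT3G55550*, *AT3G52440* and *WIP5* touched the vertical limit, and *AT5G43240* lay farthest above the horizontal one, at 17.3 CPM.

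The mirrored rule for TSA took 5 genes, and a rule for genes high on both EA and ET but not on E0 took 0. The TSA genes encode a protein kinase, a glycine-rich protein, an invertase or pectin methylesterase inhibitor, a late embryogenesis abundant protein and a 2-oxoglutarate-dependent oxygenase. *AT3G24605* was at 5.16 and 4.34 CPM in the ET means of days 5 and 10, and *AT3G47190* at 6.81 and 13.4 CPM.

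The rule held both EA means to 4 CPM or more but did not use the difference between the days, which was tested in a fit of all 18 libraries. Genes that crossed 4 CPM between the days could not be among the 9. *LBD19*, at 6.09 CPM on day 5 and 2.56 CPM on day 10, was left out in this way. Fold changes and log2 fold changes come from TMM-scaled counts and need not equal the ratio of the CPM means, which use library totals. *AT5G43240* was the only one of the 9 genes called in this fit, at an adjusted p under 0.05. It rose by 1.28 on the log2 scale (SE 0.27, 95% interval 0.71 to 1.86), which is 2.44-fold on TMM-scaled counts, with adjusted p = 0.005046 in edgeR's quasi-likelihood test. Its CPM means were 17.3 ± 3.59 on day 5 and 41.5 ± 2.25 on day 10 (SD, n = 3). Among all 23539 genes tested, 7.85% were higher and 5.2% were lower on day 10 than on day 5 of the EA culture. The share of 1 of 9 was near this background, which was not held to 4 CPM on both days. Tested against a log2 change of 1 rather than against no change, the rise of *AT5G43240* did not pass (adjusted p = 0.6414).

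*AT3G55550* had the next largest difference, 0.77 on the log2 scale (SE 0.38, interval -0.03 to 1.56), and did not pass the test (adjusted p = 0.2012 in edgeR). In a fit of the 6 EA libraries alone, its difference was 0.74 with adjusted p = 0.03534. The other 7 genes had differences from -0.70 for *AT4G01260* to 0.56 for *AT3G09120*, with adjusted p from 0.417 to 0.9677 in edgeR. Their intervals were wide, for example -1.75 to 0.95 for *AT1G05153* and -0.83 to 0.75 for *AT3G52440*. For the neighbours, *AT3G09110* differed by 0.24 (interval -0.52 to 1.00) and *AT3G09120* by 0.56 (interval -0.35 to 1.48).

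**Figure D3:**
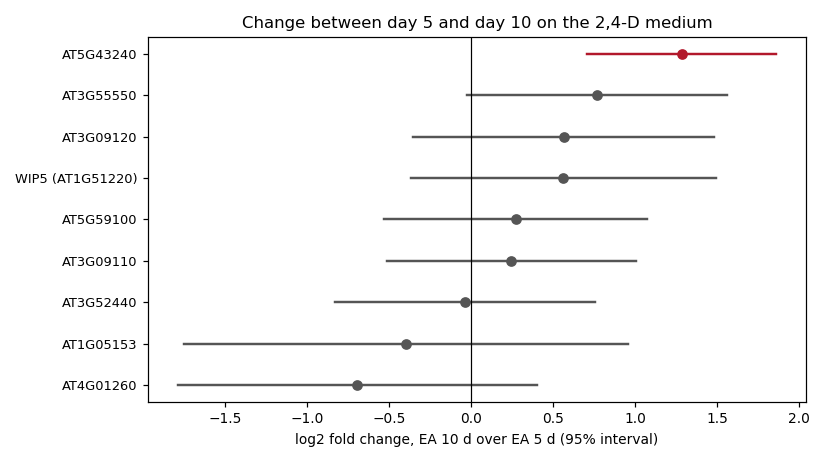
Log2 fold change of EA day 10 over EA day 5 (x axis) for the 9 genes (y axis); points are estimates of the edgeR fit and lines their 95% intervals. The interval of *AT5G43240*, 0.71 to 1.86, in red, lay above 0, and those of the other 8 genes held 0.

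Relatives of the 9 genes were then looked at, to see whether the pattern belonged to a gene or to its family. The families were drawn up from the annotation after the 9 genes were known, and the genes named were picked after their values were seen. Of the 7 other DUF674 genes, 5 did not pass the filter on low counts. *AT5G01120*, the close relative of *AT5G43240*, was at 4.28 ± 0.348 and 1.34 ± 0.799 CPM on E0 on days 5 and 10, at 21.6 ± 9.98 and 16.7 ± 1.89 CPM on ET, and at 13.5 ± 2.16 and 10.6 ± 2.61 CPM on EA (SD, n = 3). It rose on ET vs. E0 by 2.42 on day 5 (SE 0.39, adjusted p = 8.875e-05) and on EA vs. E0 by 1.43 (SE 0.38, adjusted p = 0.006349, edgeR). Between the days on EA it differed by -0.32 (SE 0.36, adjusted p = 0.606), while *AT5G43240* rose. The remaining tested member, *AT5G37320*, stayed below 0.215 CPM in every group mean.

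*WIP4* was highest on EA like *WIP5*. It was at 43.8 ± 4.31 and 37.4 ± 10.9 CPM on EA on days 5 and 10, at 0.532 ± 0.190 and 0.358 ± 0.163 CPM on E0, and at 1.71 ± 0.784 and 3.22 ± 0.573 CPM on ET (SD, n = 3). Its levels on ET and, on day 5, on E0 kept it out of the rule. *NTT*, the third gene of this trio, was at 12.8 and 10.2 CPM in the EA means, at 5.33 and 18.5 CPM in the ET means, and at 2.29 and 1.65 CPM in the E0 means. It was higher on EA than on ET on day 5 by 1.01 (adjusted p = 0.04567) and lower on day 10 by 1.05 on the log2 scale (adjusted p = 0.0401, edgeR). *WIP3* was at 2.63 to 8.05 CPM in all group means, and *DOT5* and *TT1* had group means of 0.0386 CPM or less.

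Among the Dof genes, *AT1G21340* came closest to the pattern of *AT3G52440*, with 25.3 ± 8.07 and 26.7 ± 12.4 CPM on EA (SD, n = 3), 1.79 and 0.849 CPM in the E0 means and 0.334 and 0.634 CPM in the ET means. Of the 24 other Dof genes tested, 13 were higher and 5 lower on EA than on E0 on day 5. Over all genes in this comparison, 19% were higher and 20.8% lower. On day 10, 11 Dof genes were higher and 6 lower on EA than on E0. Against ET, 13 were higher and 5 lower on EA on day 5, but 5 higher and 6 lower on day 10. On ET itself, 11 were higher and 3 lower than on E0 on day 10, where 18% of all genes were higher and 20% lower. Among the storekeeper-related genes, *AT1G66420* was at 1.31 ± 0.567 and 1.87 ± 1.21 CPM on EA and at most at 0.220 CPM in any E0 or ET library, and 5 of 15 tested were higher and 3 lower on EA than on E0 on day 5. Of the other 38 tested lectin receptor kinase genes, 3 were higher and 14 lower on EA than on E0 on day 5, and 4 higher and 22 lower on day 10, where 24.2% of all genes were higher and 25% lower. Against ET, 7 of them were higher and 4 lower on day 5, and 4 higher and 4 lower on day 10. Of all genes, 16.4% were higher and 20.1% lower on EA than on ET on day 5, and 14.4% and 17.6% on day 10. Of the other 32 tested subtilase genes, 8 were higher and 8 lower on EA than on E0 on day 5.

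**Figure D4:**
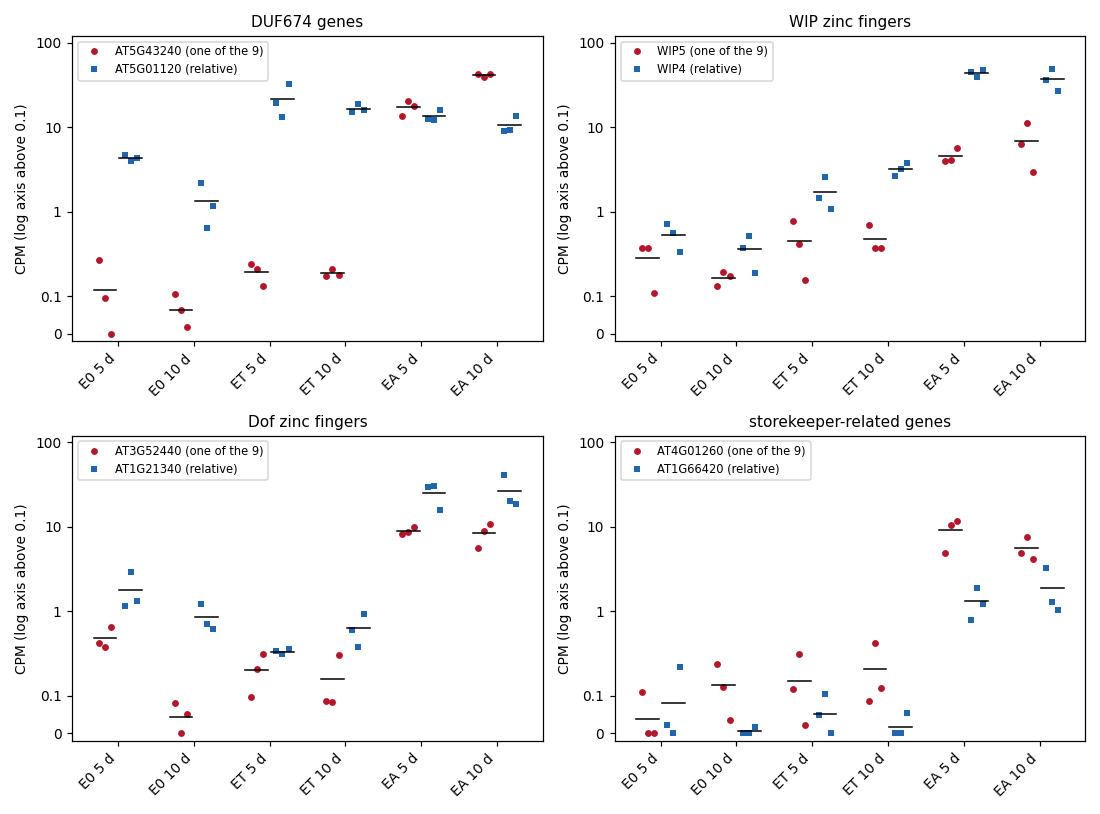
CPM (y axis, log scale above 0.1 CPM and linear below) in each library, by medium and day (x axis), for 4 of the 9 genes (red circles) and 1 relative of each (blue squares); black lines are means of 3 libraries. *AT5G01120* was high on ET, at 13.1 to 32.6 CPM on day 5, where *AT5G43240* was at 0.240 CPM or less, while *WIP4*, *AT1G21340* and *AT1G66420* were highest on EA like their relatives.

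The surrounding auxin and root programs were described with lists that held none of the 9 genes. Of 35 tested genes of Aux/IAA repressors and GH3 enzymes, which conjugate auxin to amino acids, 22 were higher and 4 lower on EA than on E0 on day 5, and 28 higher and 5 lower on day 10. Of all genes, 19% were higher and 20.8% lower in this comparison on day 5, and 24.2% higher and 25% lower on day 10. The median log2 fold change of the list was 1.13 on day 5, against 0.02 over all genes. *IAA20* rose from 0.932 to 47.5 CPM on day 5 (log2 fold change 5.67, SE 0.40, adjusted p = 2.269e-08), and *GH3.5* from 37.4 to 560 CPM (3.70, SE 0.28, adjusted p = 4.713e-08, edgeR). Against ET, 24 were higher and 4 lower on EA on day 5, where 16.4% of all genes were higher and 20.1% lower. On day 10, 11 were higher and 8 lower, where 14.4% of all genes were higher and 17.6% lower. On ET, 13 of the 35 were higher and 7 lower than on E0 on day 5, and 24 higher and 7 lower on day 10. Of all genes, 23.8% were higher and 21.5% lower on ET than on E0 on day 5, and 18% and 20% on day 10. The median log2 fold change of the list on day 10 was 1.05 on ET and 1.1 on EA, so the TSA culture shared the rise by then. On ET *GH3.3* reached 200 CPM and *IAA20* 7.49 CPM in the day 10 mean.

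Of 9 tested genes of the root stem cell niche and root cap, 7 were higher on EA than on E0 on day 5 and 8 on day 10. The root cap genes *SMB*, *BRN1* and *BRN2* were not matched to a locus and not counted, so *FEZ* alone stood for the root cap. Against ET, 6 were higher on EA on each day. On ET 2 of these 9 genes were higher than on E0 on day 5 and 8 on day 10, where 23.8% and 18% of all genes were higher. On EA 19% and 24.2% of all genes were higher than on E0 on days 5 and 10, and 16.4% and 14.4% were higher than on ET. *PLT1*, which maintains root stem cells, rose from 5.19 to 168 CPM on day 5 (4.83, SE 0.20, adjusted p = 1.555e-10), and *FEZ*, which acts in root cap stem cells, from 1.43 to 48.7 CPM (4.95, SE 0.36, adjusted p = 2.876e-08, edgeR). *PLT2*, near *WIP5*, rose from 6.18 to 60.0 CPM. The summed level of this list was 954 to 1306 CPM in the EA libraries, 211 to 326 CPM on E0 and 210 to 422 CPM on ET. All EA libraries lay above the others for this sum, as for the 9 genes, and its part in their levels was not tested. Between the days on EA the median log2 difference of the list was -0.02.

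Of 6 LBD genes that act in callus and lateral roots, 3 were higher and 2 lower on EA than on E0 on day 5, and 1 higher and 2 lower on day 10. *LBD33* was the one nearest the pattern of the 9 genes, at 4.28 CPM in the EA mean on day 5 but 0.657 CPM on day 10, and at 0.259 CPM or less in the E0 and ET means. A further list, drawn up for the conjugation of foreign chemicals, held genes of glutathione transferases of the tau class and of sugar transferases. Of its 35 tested genes, 5 were higher and 11 lower on EA than on E0 on day 5 (19% and 20.8% of all genes). On day 10, 10 were higher and 14 lower, where 24.2% of all genes were higher and 25% lower. Against ET, 3 were higher and 9 lower on EA on day 5, and 10 higher and 5 lower on day 10. Of all genes, 16.4% were higher and 20.1% lower on EA than on ET on day 5, and 14.4% and 17.6% on day 10. The median log2 fold change of this list was -0.47 against E0 on day 5 and 0.35 against ET on day 10.

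Lists of markers of other tissues were summed in the same way. Genes of the Casparian strip of the endodermis summed to 2.52 to 6.95 CPM on EA, to 3.80 to 11.3 CPM on ET and to 114 to 141 CPM on E0. All 8 were lower than on E0 both on EA and on ET on both days. Of all genes, 20.8% and 25% were lower on EA than on E0 on days 5 and 10, and 21.5% and 20% on ET. Of the 7 endosperm markers, 4 passed the filter and none was higher on EA in any of these comparisons. They summed to 1.09 to 2.37 CPM on EA, 0.936 to 3.73 CPM on E0 and 17.1 to 53.7 CPM on ET, where *MYB118* led with 46.5 CPM in the day 10 mean. The 9 pollen and tapetum markers summed to 4.61 to 6.38 CPM on EA, 3.41 to 5.26 CPM on E0 and 2.74 to 5.75 CPM on ET, and 2 passed the filter, *AMS* and *LAP6*. *AMS* was higher on EA than on ET on day 5, at 0.313 against 0.00801 CPM, and lower on EA than on E0 on day 10, at 0.0773 against 0.358 CPM. The smaller level of each comparison lay near or below the floor of 3 counts, so both differences are rough. The 6 seed coat markers summed to 54.5 to 80.6 CPM on EA, 57.7 to 84.4 CPM on E0 and 79.6 to 112 CPM on ET, nearly all of it from *MUM4*.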

How the data were processed

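The authors made paired-end libraries of RNA depleted of ribosomal RNA. Per the study's methods, reads were trimmed (Sickle), cleared of remaining ribosomal sequences (SortMeRNA) and mapped with STAR to TAIR10. The raw counts they deposited are whole numbers of uniquely mapped reads for each gene and were not normalized. The strand setting and the annotation release are not given in the sources used here. CPM values were computed from library totals over all 34218 rows, of which 285 were organelle and 1385 structural RNA genes. Tests were run with edgeR 4.0.16 in R 4.3.3, using the quasi-likelihood test on TMM-scaled counts. The filterByExpr function with the 6 groups left 23539 genes, all 18 libraries shared 1 fit with a mean per group, and genes with a Benjamini-Hochberg adjusted p under 0.05 were called. The procedure was tested on simulated data. Alternatives used DESeq2 1.42.0 and the settings named in the closing section. The 9 genes and the gene lists were chosen with earlier results of these data known. *SMB*, *BRN1*, *BRN2*, *GH3.10* and *SGN3* of the lists had no unambiguous match in the annotation and were not counted. All genes that met the rule were named, with the 3 genes nearest each limit. Gene positions, exons and promoters were read from RefSeq's TAIR10.1 annotation, whose locus codes matched all 32548 nuclear codes, and promoters of genes counted were searched on both strands. Coding and promoter sequences were aligned pairwise.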

Additional observations from a re-analysis of the deposited data

How the results depend on the processing

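The number of genes that met the rule depended on its limits. It was 5 with TMM-scaled library sizes, 4 with an upper limit of 0.25 CPM, 17 with 1 CPM, 18 with a lower limit of 2 CPM, 4 with 8 CPM, and 4 with the limits applied to every library. Without each library in turn it was 6 to 10, the lowest without ET replicate b of day 10, which lost *WIP5*, *AT3G09110* and *AT3G55550*. Without ET replicate c of day 10 it was 10, with 8 of the 9 genes kept. Between the days on EA, the number of the 9 genes that rose was 0 by glmTreat against a log2 change of 1 and 2 in a fit of the EA libraries alone. It was 1 without each library, with DESeq2's Wald test, and with a replicate block for the letters a, b and c, in which the difference of *AT5G43240* was 1.28 (adjusted p = 0.006908). Over the alternatives other than glmTreat its adjusted p was at most 0.03841, when a library was left out. The letters do not pair the samples by the labels, and the correlations of same-lettered deviations between the days (0.18, 0.04 and 0.13) were the highest for each sample, but 1 was under 0.1, so the block was not used. The difference of *AT3G52440* ranged from -0.30 to 0.19 without each library and was reversed without EA replicate c of day 5 (0.04) and without EA replicate a of day 10 (0.19). Listed genes lower on EA vs. ET on day 10 numbered 21, and 13 in a fit of those 6 libraries. The cause of these shifts was not tested. Leaving out each library was added for the lists after seeing the data and gave 33 to 38 higher and 24 to 31 lower on EA vs. E0 on day 5. Depth limits the lower levels, as 3 counts stood for up to 0.330 CPM in the shallowest library.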
